A study of Mus musculus with 61 samples.

Results

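The neurotrophins Bdnf and Ntf3, the Trk receptors Ntrk2 and Ntrk3, the receptor Ngfr and the secreted peptide precursor Vgf were followed across 5 regions and 6 inbred mouse strains. They are 6 of 18194 genes named on the array, and all probe sets annotated to exactly 1 of them were taken. There were 23 among 45037 probe sets: 2 for Bdnf, 1 for Ntf3, 8 for Ntrk2, 8 for Ntrk3, 3 for Ngfr and 1 for Vgf. The platform annotation named 22 of them, and the Ntf3 probe set was named from the list of gene positions that accompanied the study. A gene is represented below by its probe set with the highest mean signal, and the others are given as a range or by name where they differ. RNA came from untreated male mice, 8 weeks old, of the strains FVB/NJ, DBA/2J, C57BL/6J, C3H/HeJ, A/J and 129S6/SvEvTac. The dissected tissues were hippocampus, hypothalamus, pituitary gland, periaqueductal gray (pag) and the bed nucleus of the stria terminalis (bnst). Each of 29 of the 30 groups of strain and region had 2 arrays and C3H/HeJ bnst had 3, which gave 61 one-colour arrays. The RNA of an array came from 5 pooled mice in the pituitary gland, 2 to 3 in bnst, 1 to 2 in hypothalamus and pag, and 1 in the hippocampus. The 129S6/SvEvTac mice came from another supplier than the other 5 strains, so strain and supplier cannot be told apart for them.

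Neurotrophins are small secreted growth factors that support the survival, branching and synaptic plasticity of neurons. BDNF acts through the receptor tyrosine kinase TrkB, encoded by Ntrk2, and NT-3 acts mainly through TrkC, encoded by Ntrk3. Both receptor genes also give shortened forms without the kinase domain, and shortened TrkB is known to be abundant in astrocytes. The p75 receptor, encoded by Ngfr, binds all mature neurotrophins with low affinity and their precursors with high affinity. Vgf encodes a precursor of secreted peptides that is stored in the dense-core vesicles of neurons and endocrine cells, and it is a known target of neurotrophin signalling.

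Values are deposited signals on a linear intensity scale, in which values near or below 0 mean no measured signal above background. Differences are on the log2 scale, with a floor of 12.8 under which signals were not resolved (the 20th percentile). A difference was called at an adjusted p under 0.05 (limma, Benjamini-Hochberg). The tests covered 44065 probe sets with some array above the floor, and the 23 members were all among them. The arrays of a group came from different mice by the study's methods. The p-values measure the spread between these arrays, pooled over the 30 groups. In bulk RNA, fewer cells of a type and less RNA per cell cannot be told apart. The 5 markers of hippocampal principal neurons summed to 2376 to 3050 in hippocampus, against 128 to 345 in the other regions. The 4 measured hypothalamic neuron markers summed to 10963 to 18447 in hypothalamus, against 175 to 10834 elsewhere, with bnst next. The 2 measured serotonergic markers summed to 1427 to 2981 in pag, against -16.1 to 31.4 elsewhere, and the 7 measured pituitary hormone genes summed to 44820 to 63896 in the pituitary gland, against 93.4 to 7845 elsewhere. No marker list for bnst itself was used. The sum of 4 choroid plexus markers ran between 275 and 9899.9 on the bnst arrays and between 837 and 6478 on the hippocampus arrays. It was 320 to 1480 in hypothalamus, 202 to 495 in pag and 594 to 903 in the pituitary gland. Thalamic marker sums were 2245 to 5197 in bnst, against 226 to 1128 elsewhere. The part of these cells in the bnst and hippocampus values was not tested. The second C3H/HeJ pituitary array had an oligodendrocyte marker sum of 4286, against 88.0 to 281 on the other 11 pituitary arrays.

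A region effect was called for 20 of the 23 probe sets, where 71.7% of all probe sets tested were called. The 3 without a call were 1444121_at of Ntrk2 and 1450177_at and 1421241_at of Ngfr, whose region means lay between -1.49 and 23.8. A strain effect was called for 12 members, against 39.2% of all probe sets. An interaction of strain and region was called for 10 members, against 11.3% of all probe sets. The genes named for an interaction by their main probe set were Bdnf, Ntrk2, Ntrk3 and Vgf.

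**Figure D1:**
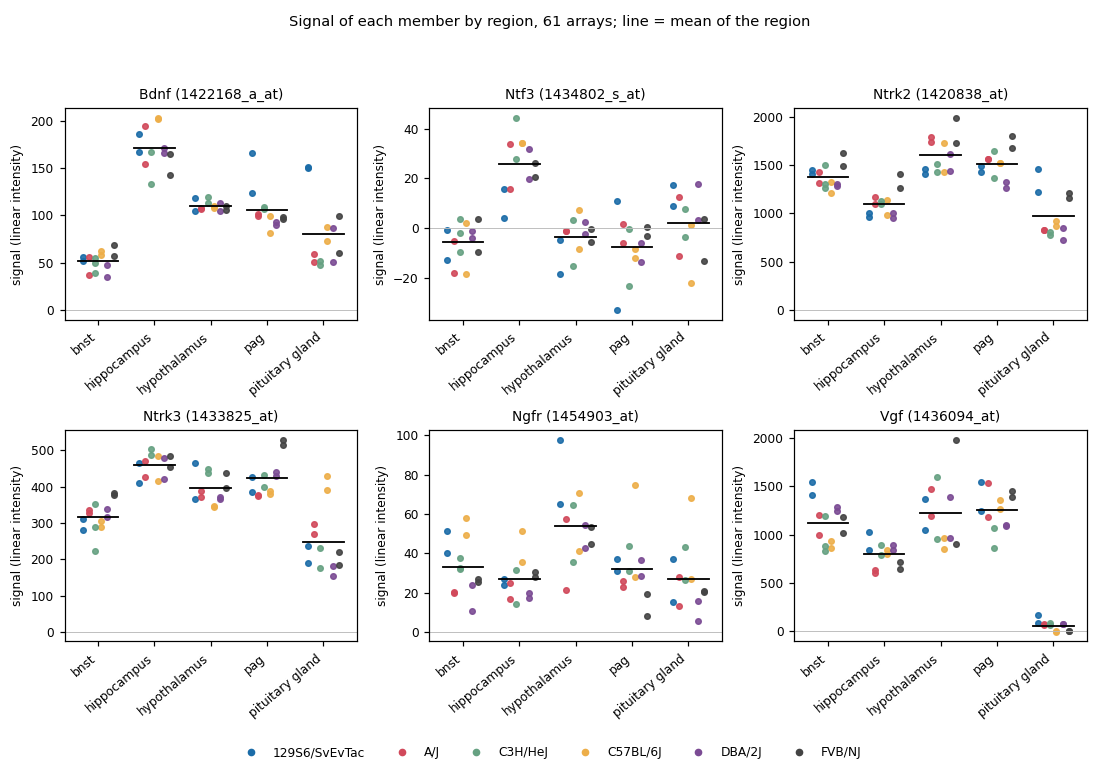
Signal (linear intensity) of the main probe set of each of the 6 genes on all 61 arrays, by region; points are arrays coloured by strain and lines are region means. Bdnf and Ntf3 were highest in hippocampus, with means of 171 and 25.7, and Vgf averaged 58.8 in the pituitary gland against 1099 over the 4 brain regions.

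Compared with the mean of the other 4 regions, 1 member was higher and 18 were lower in the pituitary gland, where 40.6% of all probe sets were higher and 25.4% lower. The balance of the members was opposite to that of the array, though 8 probe sets each belong to Ntrk2 and Ntrk3 and share a gene. Among the 18 was Ntf3 (-0.16, adjusted p = 0.036), a call that was lost at the other floors (adjusted p = 0.88 and 0.68) and without any single pituitary array other than the second of 129S6/SvEvTac and the first of DBA/2J (adjusted p between 0.052 and 0.13). In hippocampus 14 members were higher and 4 lower, against 19.1% and 29.3% of all probe sets. In hypothalamus 14 were higher and 2 lower, against 17.0% and 17.0%. In pag 13 were higher and 1 lower, against 22.2% and 21.2%, and in bnst 8 were higher and 6 lower, against 16.0% and 22.6%. The low pituitary values enter the mean of the other regions in all 4 brain comparisons. Among the 49 arrays of the 4 brain regions alone, each region against the other 3 gave 16 called members in hippocampus (40.8% of all probe sets), 10 in bnst (19.0%), 10 in pag (34.9%) and 8 in hypothalamus (29.3%). Of the 16 in hippocampus 11 were higher and 5 lower, and of the 10 in bnst 1 was higher and 9 lower.

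**Figure D2:**
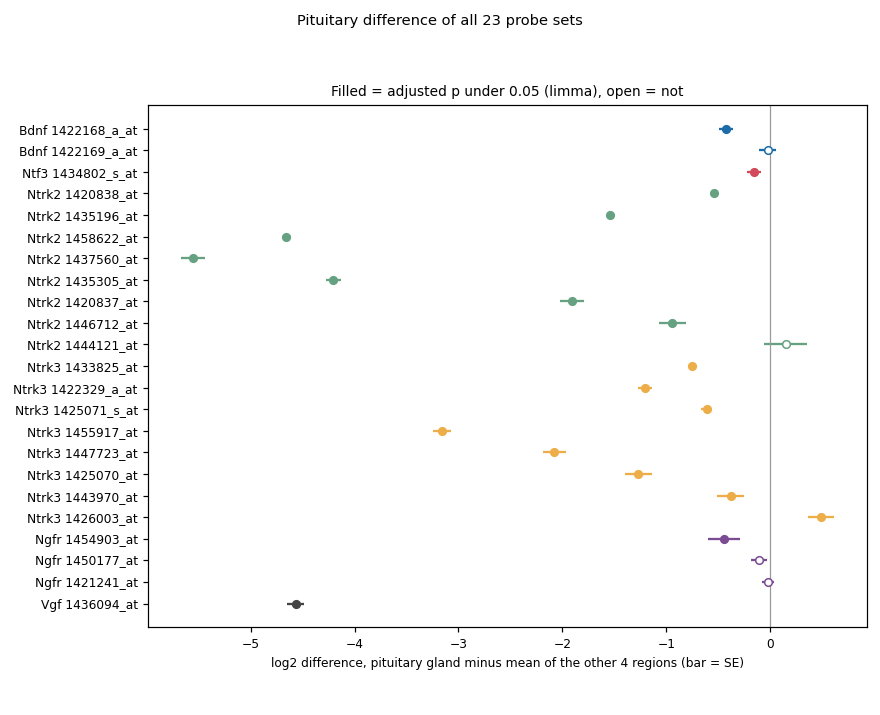
Log2 difference of each of the 23 probe sets in the pituitary gland against the mean of the other 4 regions, with its SE as a bar; filled points were called and open points were not. The differences ran between -5.55 and 0.49, and probe sets of 1 gene lay far apart, with Ntrk2 between -5.55 and 0.15, where the lowest value, of 1437560_at, was set largely by the floor.

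Bdnf, the ligand of TrkB, was highest in hippocampus and lowest in bnst. In hippocampus the 12 arrays had a lowest signal of 133, a median of 167 and a highest of 203, against a lowest of 35.1, a median of 55.1 and a highest of 68.8 on the 13 bnst arrays. The ranges did not overlap. Hypothalamus held a narrow range of 104 to 119 with a mean of 110.1 ± 4.91 (SD, n = 12), and pag averaged 105 ± 21.7 (SD, n = 12). Against the mean of the other 4 regions the log2 difference was 1.06 (SE 0.068, adjusted p = 6.5e-16) in hippocampus and -1.10 (SE 0.067, adjusted p = 5.1e-16) in bnst. Hippocampus was also higher against the other 3 brain regions, by 1.02 (adjusted p = 4.8e-15). Hippocampal principal neuron markers, given above, were high in the same arrays, and their part in the Bdnf level was not tested.

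The second Bdnf probe set, 1422169_a_at, gave the same picture in those regions and another one in hypothalamus. It differed by 1.29 in hippocampus and -0.91 in bnst. In hypothalamus it was lower by 0.39 (log2 difference -0.39, adjusted p = 0.00010), while the main probe set, 1422168_a_at, was higher there (0.28, adjusted p = 0.0011). The ratio of the main to the second probe set within an array had a median of 1.65 in hypothalamus and 0.963 in hippocampus. Which Bdnf transcripts each probe set matches is not given in the sources used here. In the pituitary gland the main probe set was lower (-0.42, adjusted p = 1.2e-06) and the second gave -0.03 (adjusted p = 0.78). In pag the main probe set passed narrowly (0.18, adjusted p = 0.036), the second gave 0.04 (adjusted p = 0.74), and the call was lost after scaling to 1 median (0.14, adjusted p = 0.20) among the brain regions alone (0.07, adjusted p = 0.36) and without single pag arrays of all 6 strains, up to an adjusted p of 0.12 without the second of 129S6/SvEvTac.

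Transcription of Bdnf starts at several promoters, and RefSeq (GRCm38.p6) gave 7 promoter windows for it, against 2 for Ntf3, 1 for Ntrk2 and 1 for Ngfr. Windows of Ntrk3 and Vgf were not analysed here. The 250 bases before each start were searched on both strands for the cyclic AMP response element TGACGTCA and for the related TCACGTCA, to which CREB1 binds in activity-dependent promoters. TGACGTCA was in none of the 11 windows and in 1.55% of 32851 windows of that length from all genes. TCACGTCA was in 1 of the 11 windows, and in 0.350% of all windows. That window is shown because it is the only one of the 11 windows searched that holds a match. It lies at chr2:109692186-109692435 on the plus strand, with the match in capitals, its last base at position -31 from the start. A match in sequence is a description, and no binding was measured here.

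Bdnf promoter: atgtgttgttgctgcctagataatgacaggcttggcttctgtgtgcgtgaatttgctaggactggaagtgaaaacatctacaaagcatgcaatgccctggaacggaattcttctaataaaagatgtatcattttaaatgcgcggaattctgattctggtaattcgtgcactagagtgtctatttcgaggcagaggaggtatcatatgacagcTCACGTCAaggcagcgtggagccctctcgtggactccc

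Between strains, the main Bdnf probe set was higher in 129S6/SvEvTac, the only strain called on it. The log2 difference from the mean of the other 5 strains was 0.39 (SE 0.073, adjusted p = 0.00014). On the second probe set 129S6/SvEvTac (0.26, adjusted p = 0.026) and C57BL/6J (0.25, adjusted p = 0.026) were both called higher, and C57BL/6J gave 0.09 (adjusted p = 0.44) on the main one. The 2 pituitary arrays of 129S6/SvEvTac had 150 and 152, against 47.5 to 99.8 on the 10 arrays of the other strains, with no overlap. In pag they had 124 and 166, against 81.5 to 109. On the second probe set neither 129S6/SvEvTac nor C57BL/6J lay above all other strains in any of the 5 regions. Over the 4 brain regions alone the difference of 129S6/SvEvTac on the main probe set was 0.18 and was not called. The interaction of strain and region had an adjusted p of 0.017 on the main probe set and was not called on the second (0.060). On the main probe set it became 0.117 after scaling each array to 1 median and 0.0766 after quantile normalization. Without either of the 129S6/SvEvTac pituitary arrays it was 0.0555 and 0.0595. In hippocampus the highest values came from C57BL/6J, with 202 and 203, against 133 to 195 in the other strains.

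Ntf3, which encodes NT-3, was measured above the floor almost only in hippocampus. There 11 of 12 arrays were above it, with a lowest signal of 4.23, a median of 27.0 and a highest of 44.3. All 37 arrays of bnst, hypothalamus and pag were at or under the floor, and 2 of 12 pituitary arrays were above it, at 17.5 and 17.8. The log2 difference of hippocampus was 0.93 (SE 0.068, adjusted p = 1.7e-14), and its size depended on the floor, with 2.11 at the 10th percentile and 0.03 at the 40th, which lies above most of the hippocampal values. A strain difference within hippocampus was called (limma, adjusted p = 0.00014). The fit takes 1 variance from all 30 groups, and groups wholly at the floor add no spread to it. The Ntf3 p-values, also that of the hippocampus difference, thus rest on less spread than the hippocampus arrays had, such as 33.8 and 15.7 in A/J. The 129S6/SvEvTac arrays had 4.23 and 15.8, against 15.7 to 44.3 in the other strains, so the ranges overlapped at an A/J array, and C57BL/6J had 34.2 on both arrays. The strain and interaction tests over all regions were not passed.

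Ntrk2, the gene of TrkB, was highest in hypothalamus and pag on its main probe set, 1420838_at. It averaged 1607 ± 188 (SD, n = 12) in hypothalamus, 1514 ± 155 (SD, n = 12) in pag, 1378 ± 118 (SD, n = 13) in bnst, 1102 ± 135 (SD, n = 12) in hippocampus and 973 ± 231 (SD, n = 12) in the pituitary gland. The order put hippocampus, the region with most Bdnf signal, below the other brain regions. Against the other 3 brain regions hippocampus was lower by 0.45 on the log2 scale (-0.45, adjusted p = 5.5e-13) and hypothalamus was higher (0.28, adjusted p = 2.8e-08). The pituitary gland was lower than the mean of the other 4 regions (-0.54, SE 0.031, adjusted p = 1.4e-17).

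The 8 Ntrk2 probe sets did not share 1 regional pattern. In the pituitary gland 1458622_at had 22.8 to 54.5, against 732 to 1154 on the 49 brain arrays. Probe set 1437560_at had -23.6 to 49.2 there, against 470.0 to 1062, and 1435305_at had 7.12 to 31.1, against 139 to 840.5. The pituitary mean was 4.06% of the brain mean for 1458622_at and 4.94% for 1435305_at. No share is given for 1437560_at, since most of its pituitary values were not resolved. On the main probe set the pituitary mean was 69.5% of the brain mean, and on 1435196_at it was 33.7%, with 297 to 510 in the pituitary gland against 677 to 1603 in the brain regions. The log2 difference of the pituitary gland was -1.54 for 1435196_at and -4.65 for 1458622_at, which had no pituitary array under the floor. For 1437560_at, with 8 of 12 arrays at or under it, the fitted -5.55 was set largely by the floor and became -6.40 at the 10th percentile and -4.49 at the 40th. For 1435305_at, with 2 such arrays, the fitted -4.21 became -4.30 and -3.50. Astrocyte markers moved the same way: all 6 summed to 629 to 1044 in the pituitary gland, against 6340 to 10430 in the brain regions, with none at or under the floor. The 4 neuron markers summed to 3236 to 4629 there, against 7622 to 11935. Oligodendrocyte sums (88.0 to 4286, against 6673 to 12225) and microglia sums (338 to 618, against 1015 to 2291) were also lower. Fibroblast sums were higher (2784 to 3534, against 204 to 1437). Among the brain regions the astrocyte sum had its highest median in hippocampus, at 9590, against 8538 in hypothalamus, 7639 in bnst and 7495 in pag. The part of these cell types in the Ntrk2 differences was not tested. Leaving out the pituitary array with the high oligodendrocyte sum gave -4.61 for 1458622_at, -5.71 for 1437560_at and -4.27 for 1435305_at.

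Within the brain regions the probe sets also split. Hippocampus against the other 3 regions was lower on 1420838_at, on 1435196_at (-0.64, adjusted p = 1.8e-18) and on 1420837_at (-1.002, adjusted p = 4.5e-09). It was higher on 1437560_at (0.19, adjusted p = 3.9e-05) and on 1435305_at (0.18, adjusted p = 0.0077). The transcript forms that each probe set matches are not given in the sources used here, so the split cannot be assigned to forms of TrkB with or without the kinase.

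**Figure D3:**
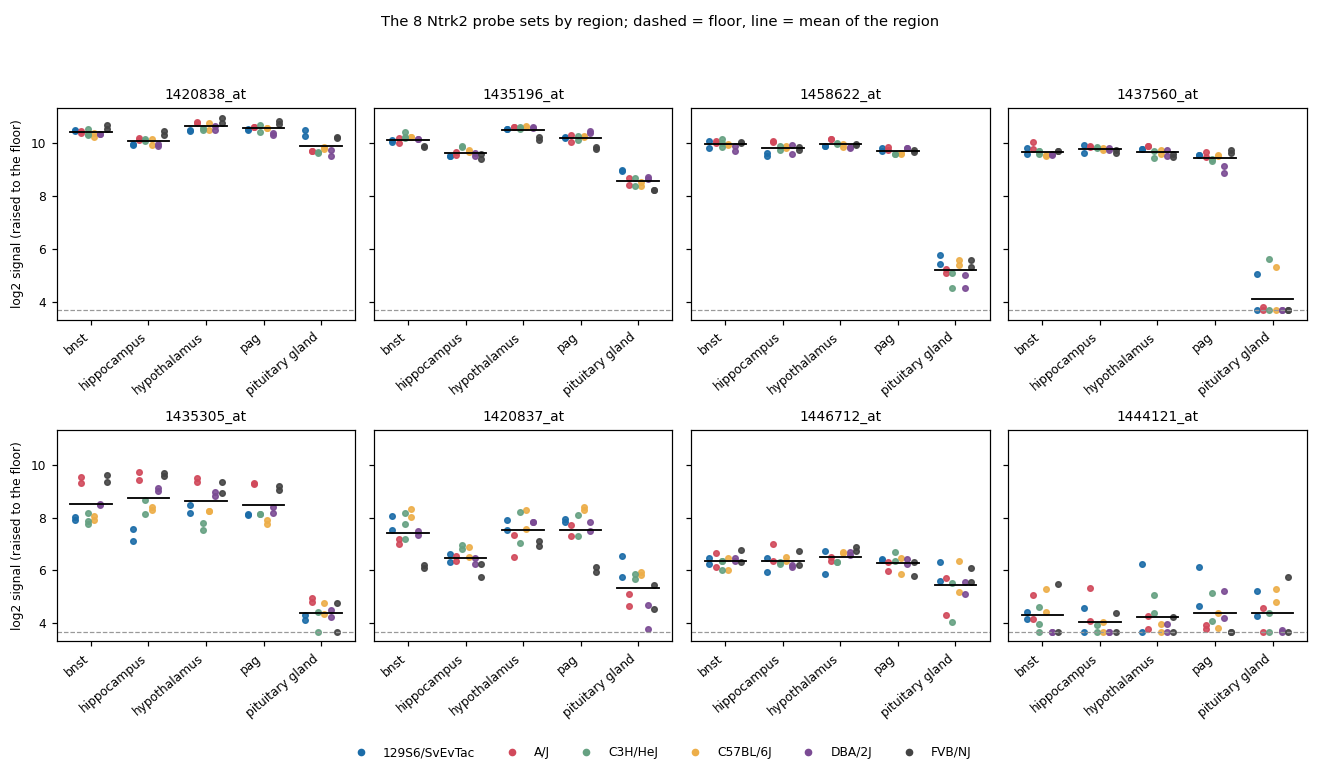
Log2 signal of the 8 Ntrk2 probe sets on all 61 arrays by region, raised to the floor (dashed); points are arrays coloured by strain and lines are region means. In the pituitary gland 1437560_at was at or under the floor on 8 of 12 arrays, while 1420838_at was at 728 to 1463 on the linear scale.

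Strain differences of Ntrk2 also depended on the probe set. On 1435305_at the 16 brain arrays of A/J and FVB/NJ had a lowest signal of 492, a median of 658 and a highest of 840.5, against 139, 281 and 555 on the 33 brain arrays of the other 4 strains. In bnst, hippocampus and pag the 2 ranges did not overlap. This pair of strains was picked after the values were seen. Each strain against the other 5 gave 0.92 (SE 0.080, adjusted p = 3.7e-11) in A/J and 0.69 (adjusted p = 2.9e-08) in FVB/NJ, and -0.67 in 129S6/SvEvTac, -0.61 in C3H/HeJ and -0.42 in C57BL/6J, all called.

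FVB/NJ had the reverse sign on other probe sets of the gene. On 1435196_at it was below every array of the other strains in 4 of 5 regions, for example at 1195 and 1104 in hypothalamus, against 1464 to 1603, and its difference was -0.35 (SE 0.031, adjusted p = 8.3e-11). On 1420837_at it was at 67.7 and 73.0 in bnst, against 129.8 to 321 in the other strains, with a difference of -0.97 (adjusted p = 1.8e-07). On the main probe set FVB/NJ was higher (0.29, SE 0.034, adjusted p = 3.3e-08), and in hippocampus it had 1410.0 and 1264, against 957 to 1168. DBA/2J was lower on the main probe set (-0.19, adjusted p = 5.2e-05) and higher on 1435196_at (0.10, adjusted p = 0.024). Probe sequences were not compared with strain sequences here.

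**Figure D4:**
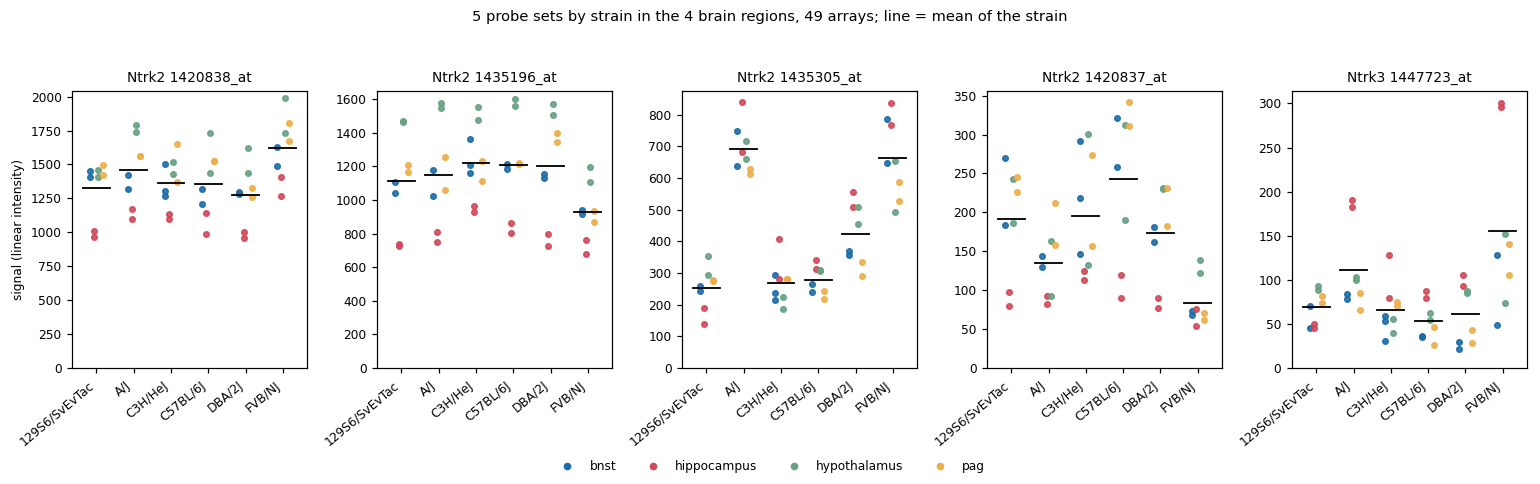
Signal (linear intensity) of 4 Ntrk2 probe sets and 1 Ntrk3 probe set by strain on the 49 arrays of the 4 brain regions, coloured by region; lines are strain means. FVB/NJ was high on 1435305_at and low on 1420837_at and 1435196_at, with log2 differences of 0.69, -0.97 and -0.35 over all regions.

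Ntrk3, the gene of TrkC, was highest in hippocampus, the region of its ligand gene Ntf3. Its main probe set, 1433825_at, averaged 459 ± 32.8 (SD, n = 12) in hippocampus, 423 ± 52.4 (SD, n = 12) in pag, 395 ± 41.8 (SD, n = 12) in hypothalamus, 318 ± 42.7 (SD, n = 13) in bnst and 246 ± 87.5 (SD, n = 12) in the pituitary gland. Hippocampus was higher than the other 3 brain regions (0.29, adjusted p = 8.4e-07) and bnst lower (-0.41, adjusted p = 3.9e-09). Of the other 7 probe sets, 5 were also called higher in hippocampus and the same 5 were called lower in bnst.

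In the pituitary gland 7 of the 8 Ntrk3 probe sets were lower. A pair stood near background there. Probe set 1455917_at had -1.70 to 21.6, against 59.9 to 225 in the brain regions, and 1447723_at had 5.66 to 27.0, against 21.1 to 300.2. At or under the floor were 9 and 4 of their 12 pituitary arrays, so the sizes of their differences depended on it. The first was -3.16 (adjusted p = 1.0e-27), with -3.68 and -1.89 at the floors of the 10th and 40th percentile. The second was -2.08 (adjusted p = 9.4e-19), with -2.30 and -1.12, and that of the main probe set was -0.75 (SE 0.044, adjusted p = 2.0e-17). The exception was 1426003_at, higher in the pituitary gland by 0.49 (adjusted p = 0.00069; 0.72 and 0.03 at the other floors), with region means of only 12.2 to 24.6. The same changed marker sums as given for Ntrk2 stood beside these values, and their part was not tested.

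The interaction of Ntrk3 (adjusted p = 6.6e-05) was clearest to see in C57BL/6J. Its pituitary arrays had 392 and 430, against 154 to 298 in the other strains. In hypothalamus it had 344 and 347, against 367 to 465, so it was above every other array in the first region and below every other array in the second. FVB/NJ was above all other strains in 2 of 5 regions, bnst at 377 and 383 against 224 to 352, and pag at 530.0 and 516 against 374 to 441. No strain passed the test over all 5 regions on this probe set, while on the 49 brain arrays FVB/NJ was called higher (0.21, adjusted p = 0.0043). On 1447723_at FVB/NJ (0.90, adjusted p = 4.3e-07) and A/J (0.63, adjusted p = 0.00020) were higher and DBA/2J (-0.53) and C57BL/6J (-0.47) lower. In hippocampus FVB/NJ had 300.2 and 296 on it and A/J 190 and 183, against 45.4 to 128 in the other 4 strains.

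Ngfr signals lay close to the floor. The main probe set, 1454903_at, averaged 54.1 ± 19.6 (SD, n = 12) in hypothalamus, 32.9 ± 13.9 (SD, n = 13) in bnst, 32.1 ± 16.2 (SD, n = 12) in pag, 26.7 ± 10.1 (SD, n = 12) in hippocampus and 26.7 ± 16.7 (SD, n = 12) in the pituitary gland. Hypothalamus was the only region called higher (0.90, SE 0.16, adjusted p = 1.3e-05), and its values of 21.3 to 97.8 overlapped all other regions. The pituitary gland was lower (-0.45, adjusted p = 0.012), a call lost at the 40th-percentile floor (adjusted p = 0.22) and without the second 129S6/SvEvTac, the first A/J or the first C57BL/6J pituitary array (adjusted p between 0.053 and 0.064). C57BL/6J was higher than the other strains (0.75, SE 0.17, adjusted p = 0.00089), and A/J was lower (-0.49, adjusted p = 0.042), a call that was lost at other floors (adjusted p = 0.12 at the 10th percentile and 0.23 at the 40th) and without single arrays of all 6 strains, up to an adjusted p of 0.22 without the second A/J hypothalamus array. The other 2 probe sets had region means of -1.49 to 8.80 and no call for region, strain or interaction. The p75 receptor is known from cholinergic neurons of the basal forebrain. The 3 cholinergic markers had median sums of 263 in pag, 66.7 in hypothalamus, 62.0 in bnst, 53.8 in hippocampus and 51.4 in the pituitary gland, with region means of Chat between 17.8 and 31.1, and their part in the Ngfr values was not tested.

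Vgf had strong signals in every brain region and little in the pituitary gland. It averaged 1258 ± 207 (SD, n = 12) in pag, 1224 ± 344 (SD, n = 12) in hypothalamus, 1120.5 ± 221 (SD, n = 13) in bnst and 794 ± 122 (SD, n = 12) in hippocampus. The 12 pituitary arrays had -4.15 to 166, against 608 to 1980.3 on the 49 brain arrays. The pituitary difference was -4.57 (SE 0.080, adjusted p = 1.3e-33), and between -5.70 and -4.09 with other floors and transformations, since 4 of the 12 arrays were at or under the floor. Because of these low values hippocampus came out higher against the mean of all other regions (0.59), while among the brain regions it was the lowest (-0.59, adjusted p = 4.8e-07) and pag was the highest (0.30, adjusted p = 0.0049). FVB/NJ hypothalamus had 1980.3 on the array of 2 pooled mice and 905 on the array of 1 mouse.

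The pituitary values of Vgf split by strain, and the strains set apart here were picked after the values were seen. C57BL/6J had 2.04 and -4.15 and FVB/NJ had 2.80 and 0.490, against 66.2 to 166 on the 8 arrays of the other 4 strains. All 4 of the first were under the floor and none of the 8 was, so no ratio is given. Within the pituitary gland the strain test gave an adjusted p of 4.0e-14, and the interaction gave 5.4e-08. In the brain regions C57BL/6J and FVB/NJ together had 649 to 1980.3, against 608 to 1599, with the ranges overlapping in each of the 4 regions. On signals without a log the interaction was not called (adjusted p = 0.38). Pituitary endocrine markers summed to 56077 to 58552 in C57BL/6J and 48990 to 55880 in FVB/NJ pituitary, against 44820 to 63896 in the other 4 strains. None of 14 marker lists separated these 4 arrays from the other 8. Hypothalamic neuron markers were low, at 1091 to 1367, against 1223 to 2331, with overlap. C57BL/6J alone lay outside the other 10 arrays on 4 lists. It was lower in the sums of fibroblast markers (2784 to 2813, against 3099.9 to 3534), hypothalamic neuron markers (1091 to 1206, against 1223 to 2331) and striatal medium spiny neuron markers (1311 to 1355, against 1443 to 2737), and higher in that of cholinergic markers (98.4 to 118, against 18.2 to 96.9). The striatal list had its highest median sum in the pituitary gland (1674, against 382 to 953 in the brain regions), so it is not read there as that cell type. Of the 3 cholinergic markers 1 had a pituitary mean at or under the floor. The part of these 4 lists in the Vgf values, or in the Ntrk3 values of C57BL/6J pituitary, was not tested. A single probe set represents Vgf.

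**Figure D5:**
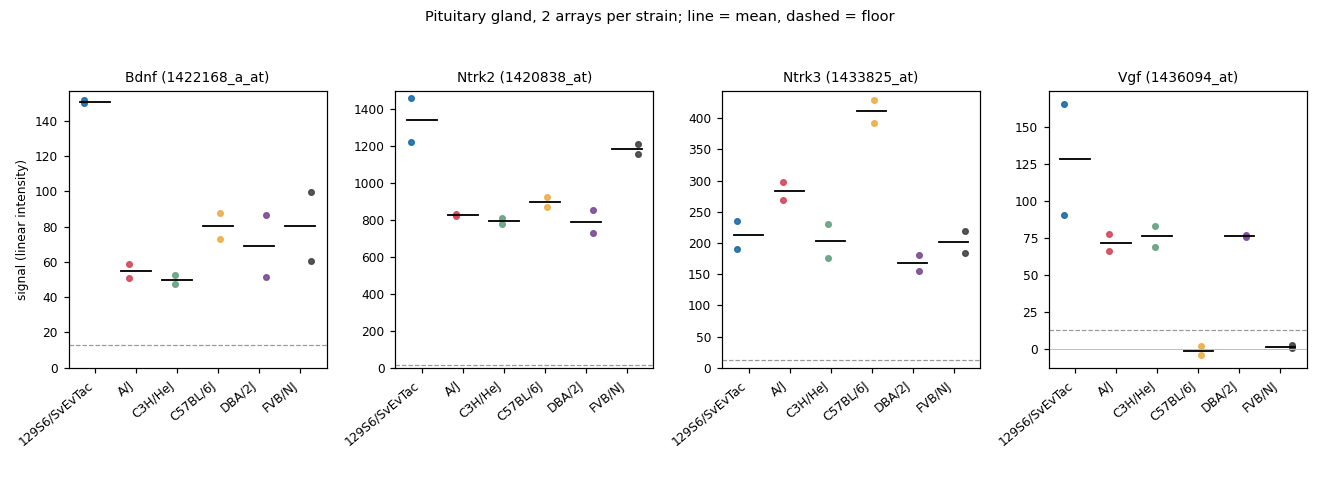
Signal (linear intensity) in the pituitary gland of the main probe sets of Bdnf, Ntrk2, Ntrk3 and Vgf, 2 arrays per strain with their mean; the dashed line is the floor. Bdnf was highest in 129S6/SvEvTac at 150 and 152, Ntrk3 in C57BL/6J at 392 and 430, and Vgf was under the floor in C57BL/6J and FVB/NJ.

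Strain differences within the pituitary gland were called for 13 members on the log scale, against 31.9% of all probe sets, and 4 of the 6 main probe sets were among them. In bnst 5 were called (19.3% of all probe sets), in hippocampus 5 (10.6%), in pag 5 (13.3%) and in hypothalamus 3 (10.9%). On signals without a log the order was another one, with 8 in pag, 6 in hypothalamus and 5 in the pituitary gland. For the main Ntrk2 probe set the pituitary pattern set 129S6/SvEvTac and FVB/NJ apart, a pair picked after the values were seen. These had 1159 to 1463 on the main probe set, against 728 to 925 in the other 4 strains, with no overlap (strain test adjusted p = 3.8e-08). In hippocampus the same pair overlapped the rest, since 129S6/SvEvTac had 1006 and 965. The 129S6/SvEvTac pituitary arrays had neuron marker sums of 4001 and 4629, against 3236 to 4006 in the other strains, and pituitary endocrine sums of 50945 and 63896, against 44820 to 58552. Of the 14 lists only microglia markers separated 129S6/SvEvTac from the other strains (338 and 352, against 472 to 618), and none separated 129S6/SvEvTac and FVB/NJ together. Their part in the strain differences was not tested. When the fit was limited to the 4 brain regions, the interaction was not called for Bdnf (adjusted p = 0.25), Ntrk2 (0.61), Ntrk3 (0.38) or Vgf (0.41). Calls fell in general there, to 2.42% of all probe sets from 11.3% over all regions.

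Against the other 5 strains, C57BL/6J had 4 members higher and 4 lower, where 11.7% and 10.4% of all probe sets were. 129S6/SvEvTac had 4 higher and 1 lower (9.93% and 8.80%), A/J 4 and 1 (7.74% and 7.36%), FVB/NJ 3 and 3 (5.68% and 5.32%), DBA/2J 2 and 4 (6.00% and 7.50%), and C3H/HeJ 1 and 1 (5.23% and 5.28%). Most of these calls were on Ntrk2 and Ntrk3 probe sets, and Vgf was called higher in 129S6/SvEvTac (0.54, adjusted p = 1.1e-05) and lower in C57BL/6J (-0.57) and FVB/NJ (-0.40). Over the brain regions alone these became 0.25, -0.17 and 0.04, none called.

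Ordered by region mean, 12 of the 24 neighbouring pairs of the 6 genes differed. For Ntf3 all arrays of bnst, hypothalamus and pag were at the floor, so their order was arbitrary and these neighbours could not differ. Neighbours were set by sorting these same values, while the shares over all probe sets are for fixed pairs of regions, so they are not a like comparison. Over all probe sets the share that differed was 33.7% between bnst and hippocampus, 23.1% between bnst and hypothalamus, 23.1% between bnst and pag, 62.0% between bnst and pituitary gland, 36.8% between hippocampus and hypothalamus, 42.2% between hippocampus and pag, 62.7% between hippocampus and pituitary gland, 26.2% between hypothalamus and pag and 60.1% between pag and pituitary gland. For Bdnf the order was hippocampus, hypothalamus, pag, pituitary gland and bnst, in which only hypothalamus and pag did not differ beyond their spread (adjusted p = 0.52). For Ntrk2 it was hypothalamus, pag, bnst, hippocampus and pituitary gland, with hypothalamus and pag not told apart (adjusted p = 0.12). For Ntrk3 it was hippocampus, pag, hypothalamus, bnst and pituitary gland. Hippocampus and pag (adjusted p = 0.080) and pag and hypothalamus (adjusted p = 0.22) were not told apart. For Vgf pag, hypothalamus and bnst were not told apart (adjusted p = 0.68 and 0.64), hippocampus was below them and the pituitary gland far below. For Ngfr only hypothalamus stood above its neighbour, and for Ntf3 only hippocampus.

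Of 56 other genes of the pathway, 47 had a probe set: 13 for processing, release and sorting of proneurotrophins, 23 for adaptors and kinases downstream of Trk receptors, 8 partners of Ngfr, 2 receptors of VGF peptides and 1 other ligand. A region effect was called for 42 of the 47 (71.7% of all probe sets), a strain effect for 28 (39.2%) and an interaction for 8 (11.3%). In the pituitary gland 20 were higher and 21 lower, where 40.6% and 25.4% of all probe sets were, with a median log2 difference of -0.09, against 0.10 over all probe sets. In hippocampus 14 were higher and 18 lower (19.1% and 29.3% of all probe sets), with a median of -0.01, against -0.07 over all probe sets. The counts were 18 and 17 in pag (22.2% and 21.2%), with a median of -0.01, against 0.02. They were 14 and 10 in hypothalamus (17.0% and 17.0%), with a median of 0.01, against -0.03, and 12 and 14 in bnst (16.0% and 22.6%), with a median of -0.0020, against -0.05.

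The pituitary gland had the largest differences of this list. Pcsk6, a proprotein convertase, averaged 1058 ± 141 (SD, n = 12) there, against 101 ± 22.5 (SD, n = 49) elsewhere (log2 difference 3.41, adjusted p = 6.0e-32). Shc1, an adaptor that binds activated Trk receptors, averaged 499 ± 58.7 against 94.5 ± 25.5 (2.45). Lower were Lingo1, a partner of the Nogo receptor and p75, at 71.3 ± 14.6 against 513 ± 237 (-2.73), and Sorcs3, a sorting receptor of the sortilin family, at 40.3 ± 8.05 against 252 ± 34.9 (-2.66). Of the 23 adaptors and kinases 7 were higher and 14 lower there, where 40.6% and 25.4% of all probe sets were, and their median was -0.36, against 0.10. In hippocampus Rtn4r, the Nogo receptor, was higher at 392 ± 57.4 (SD, n = 12) against 95.8 ± 55.8 (2.26), with Lingo1 at 902 ± 49.3 against 310 ± 156 (1.87). Sorcs1 (-1.64) and Shc1 (-1.26) were lower. In bnst Shc3, a neuronal Shc adaptor, was higher at 147 ± 49.05 against 47.0 ± 31.9 (1.78), as was Sorcs1 (0.82), and Pcsk6 (-0.62) and Irak1 (-0.36) were lower. In hypothalamus Sh2b2 (0.93) and Sorcs3 (0.84) were higher and Pcsk6 (-1.21) and Rtn4r (-0.95) lower. In pag Frs3, a docking protein of Trk receptors (0.82), and Sorcs1 (0.75) were higher and Irak1 (-0.60) and Cadps2, which acts in the release of BDNF vesicles (-0.59), lower. All of these passed the test. Ntf5, the other neurotrophin gene measured, was picked after its values were seen, and averaged 53.7 ± 14.6 (SD, n = 12) in the pituitary gland, against 15.3 to 17.5 in the brain regions (1.61, adjusted p = 2.7e-13).

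The genes whose pattern was most like each member were ranked by Pearson correlation of log2 group means, as a description over groups that share arrays and regions. Over all 30 groups the leading genes were Vip, Rilpl1 and Npnt for Bdnf (r = 0.85, 0.83 and 0.83), Ier5, Neurod6 and Fezf2 for Ntf3 (0.89, 0.89 and 0.88), Gnl3l, A230006K03Rik and Pcnx4 for Ntrk2 (0.89, 0.88 and 0.88), Htr1a, Npy5r and Adam19 for Ntrk3 (0.89, 0.88 and 0.86), Megf6, Inpp1 and Cd200 for Ngfr (0.76, 0.74 and 0.73) and Gdpd1, Minpp1 and Epb41l4b for Vgf (0.98, 0.98 and 0.97). Over the 24 groups of the brain regions they were Grik4, Tafa1 and Crhbp for Bdnf (0.94, 0.92 and 0.92), Spink8, Lyst and Ier5 for Ntf3 (0.92, 0.91 and 0.91), Sqor, Cyp2j9 and Ptch1 for Ntrk2 (0.90, 0.89 and 0.88), Dip2c, Chrna7 and Ensa for Ntrk3 (0.84, 0.83 and 0.83), Tapbpl, Inpp1 and Prps1l3 for Ngfr (0.86, 0.81 and 0.80) and Gm1673, Ubr4 and Anapc2 for Vgf (0.88, 0.88 and 0.88). Of these lists only Ntf3 and Ngfr kept a gene, Ier5 and Inpp1. The main Ntrk2 probe set correlated over the 24 groups with its own gene's other 7 probe sets at between -0.22 and 0.60.

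By a regression on strain and region after the study's methods, on signals without a log, 19 of the 23 members were region-specific and 0 were strain-specific, where 60.6% and 8.87% of all 45037 probe sets were. Unlike those methods, it took p-values from the F distribution for this sorting and kept all probe sets, with no filter on detection calls. With p-values from 99 permutations of the arrays 18 members were region-specific and 0 strain-specific. The lowest p that these permutations can give is 0.01, so a p of 0.01 or less was taken there. A member with both effects at that lowest p counted as region-specific, so the permutations could not class it as strain-specific. With p-values from the F distribution, a member was region-specific if its region effect had a p under 0.01 that was not larger than the strain p. The 4 others were 1444121_at, 1443970_at and the 2 faint Ngfr probe sets, which passed for neither effect. The strain F reached 120 on 1435305_at of Ntrk2, next to a region F of 192, so this probe set was region-specific although its strain effect was the largest of the members. In the analysis of 60 arrays an interaction p under 0.01 was found for 11 members, against 17.1% of all probe sets.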

How the data were processed

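The authors processed the scanned arrays with the TeraGenomics absolute analysis, and the deposited intensity of a probe set is a background-corrected, globally scaled signal on a linear scale. The scaling target and the version are not given in the sources used here. The mean signal of an array lay between 180.5 and 200.5, 5.36% of values were below 0, and replicate arrays correlated at a median r of 0.993. Depth has no counterpart on arrays, and their number limits the precision. The 64 control probe sets were left out. Signals below a floor of 12.8 (their 20th percentile) were set to it, and log2 values were fitted in limma 3.58.1 (R 4.3.3) as 30 group means with a variance trend in eBayes. Probe sets at the floor on every array (972) were not tested. The residual degrees of freedom were 31. The fit was tested on simulated data. The regression and descriptions used Python 3.11.15 with numpy 2.4.6, pandas 2.3.3 and scipy 1.17.1.

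A gene was named from the platform annotation and represented by its single-gene probe set with the highest mean. Members, gene lists and comparisons were chosen with earlier results of these data known. For each member the 3 genes most like it were taken among those with a mean signal of 50 or more, and of the pathway list the 2 called genes with the largest difference in each direction were named for each region. The alternatives were other floors and transformations, scalings, filters and priors, 60 arrays, the 49 brain arrays, each array left out, a replicate block and the other probe sets of each gene.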

Additional observations from a re-analysis of the deposited data

Results flagged for a closer look

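On the main probe sets the difference between strains changed with the region for 4 of the 6 genes. The test was that of the interaction (limma, adjusted over all probe sets). It was passed by 1 of 2 probe sets of Bdnf, 4 of 8 of Ntrk2 and 4 of 8 of Ntrk3. The adjusted p was 5.4e-08 for Vgf, 6.6e-05 for Ntrk3, 0.0015 for Ntrk2 and 0.017 for Bdnf. None of the 4 was called among the brain regions alone, where 2.42% of all probe sets were, against 11.3% over all regions. The strains that stood apart in the pituitary gland were picked after the values of the main probe sets were seen. They were C57BL/6J and FVB/NJ for Vgf, C57BL/6J for Ntrk3, 129S6/SvEvTac and FVB/NJ for Ntrk2 and 129S6/SvEvTac for Bdnf. With 2 arrays in each of these groups, each of these rests on 2 pools of 5 mice.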

How the results depend on the processing

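Single log2 differences were recomputed with all arrays, or the 60 or 49, on the same probe set. With their sign kept, 23 lost and 9 gained the call, and 5 that were called in the main fit turned their sign. The other 661 kept their direction and side of the threshold, or turned their sign where the main fit had no call. The counts of called members that moved by over 1.5 times were as follows. On the 49 brain arrays hypothalamus fell to 8 members (16 over all regions), 129S6/SvEvTac to 2 (5) and the interaction to 2 (10), where the pituitary gland is also gone from the comparison. Of all probe sets 29.3%, 15.0% and 2.42% were called on these arrays. With each array scaled to 1 median the interaction had 6 members, strain differences within hippocampus 3 (5) and within hypothalamus 1 (3). C3H/HeJ had 4 members (2) with the 10th-percentile floor and 4 with an asinh transform. Within hypothalamus 5 members were called with the 40th-percentile floor. On signals without a log, 6 were called within hypothalamus, 8 within pag (5) and 5 within the pituitary gland (13). The cause was not tested.

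Sign turns were counted only for differences called in the main fit. The sign turned on the 49 brain arrays for Vgf in hippocampus (-0.59) and FVB/NJ (0.043), Ntrk2 in bnst (-0.0061) and Ntrk3 in hypothalamus (-0.0023), and with asinh for Ntf3 in the pituitary gland (0.78). It turned on another probe set of the gene for Bdnf in hypothalamus (-0.39), for Ntrk2 in hippocampus (1.10, 1.56, 1.22 and 0.22), hypothalamus (-0.073), the pituitary gland (0.15), DBA/2J (0.10 and 0.089) and FVB/NJ (-0.35, -0.10, -0.97 and -0.11), for Ntrk3 in bnst (0.25), hippocampus (-0.34), hypothalamus (-0.073 and -0.039), pag (-0.047) and the pituitary gland (0.49), and for Ngfr in C57BL/6J (-0.029). Where the main probe set had no call, others were called with the opposite sign. For Ntrk2 these were 1435305_at in 129S6/SvEvTac (-0.67), 1420837_at in C57BL/6J (0.67) and 1435196_at in C3H/HeJ (0.11). For Ntrk3 they were 1455917_at (-0.47) and 1447723_at (-0.47) in C57BL/6J and 1455917_at in DBA/2J (0.28).

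Leaving out 1 array gave 3 to 6 members in 129S6/SvEvTac (lowest without its second pituitary array), 3 to 6 in A/J (lowest without its bnst replicate 2, hippocampus replicate 2, hypothalamus replicate 2 or pag replicate 1), 1 to 3 in C3H/HeJ (lowest without its hippocampus replicate 1) and 3 to 7 in DBA/2J (lowest without its hippocampus replicate 2). The Ntf3 interaction passed without any of 5 hippocampus arrays, both of A/J, both of DBA/2J and the first of C3H/HeJ (adjusted p between 0.0026 and 0.042).

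Samples share a replicate number only: deviations of equally numbered arrays correlated at a median of -0.0046 over 406 pairs of groups, and 78 were over 0.1. With a replicate block 11 members had an interaction (10 without it), 13 a strain effect (12) and 7 a strain difference within bnst (5). On the main probe sets no called log2 difference or interaction lost its call, and none gained a call with its sign kept.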
